A study of Mus musculus with 8 samples.

Results

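The glutathione transferase gene Gsta3, the isocitrate dehydrogenase gene Idh1 and the aldehyde oxidase gene Aox1 were followed across single cells of mouse stomach glands. They are 3 of the 779 genes with a complete row in the deposited count table, and they were chosen by name, with earlier levels and spread of these genes in the same cells known. Their levels and spread are therefore given as a description. The cells came from the mouse genotype Atp4bCre; Rosa26NICD; Arid1aflox/flox at 23 weeks, the only genotype in the series. Atp4bCre drives Cre from the promoter of a proton pump subunit gene of acid-secreting parietal cells. Where Cre acts, the Rosa26 locus makes the Notch intracellular domain, which signals without a ligand, and Arid1a, a gene for a subunit of the BAF chromatin remodeller, loses its floxed segment. All 8 labelled samples share these alleles, there is no control genotype, and cells outside the Cre lineage were not told apart. The labels number the samples as glands, and separate animals are not stated.

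Cells were sorted as high for EPCAM, a surface protein of epithelia, and low for Sytox, a dye that enters dead cells, and were run on the 10x droplet platform. The table held 1460 cell barcodes with no sample number, so they were treated as 1 pooled sample, no difference between groups of barcodes could be tested, and no p-value is given. The 1388 barcodes with 100 or more unique molecular identifiers (UMIs, 1 per captured RNA molecule) were used, with a median of 286 and a range of 100 to 1082 UMIs. These totals cover only the genes of the table. The 707 genes that matched the GENCODE vM21 annotation lie between positions 3102016 and 89933290 of chromosome 1, and 72 were not matched. Rpl37a, Rpl7, Rpl31 and Ptma held 49.7% of the UMIs. Levels are given in CPM, the UMIs of a gene per 1000000 UMIs of the table, so they are not levels per whole transcriptome. All intervals are 95% intervals for counting error only, and they are too narrow for genes whose UMIs sit in few cells.

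Gsta3 encodes an alpha-class glutathione S-transferase, which joins glutathione to reactive electrophiles. Idh1 encodes the cytosolic and peroxisomal isocitrate dehydrogenase that makes NADPH, the reductant with which glutathione reductase restores oxidised glutathione. Aox1 encodes a molybdenum- and flavin-containing oxidase that turns aldehydes and nitrogen heterocycles into oxidised products and releases reactive oxygen species. Several glutathione transferase genes are known targets of the transcription factor NRF2, which the KEAP1-CUL3 ubiquitin ligase keeps low in unstressed cells.

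The sequences upstream of Gsta3 and Idh1 are shown because the RNAs of these genes varied together in the cells. They are the 250 bases before the RefSeq start site (build GRCm38.p6, gene strand), chr1:21240335-21240584 on the plus strand for Gsta3 and chr1:65186480-65186729 on the minus strand for Idh1. The start sites used lie 4 bases (Gsta3) and 21 bases (Idh1) from the GENCODE vM21 starts, and other start sites were not searched. Capitals mark the antioxidant response element core TGACNNNGC in Gsta3, and GC boxes, which match GGGCGG on the other strand, in Idh1.
Gsta3: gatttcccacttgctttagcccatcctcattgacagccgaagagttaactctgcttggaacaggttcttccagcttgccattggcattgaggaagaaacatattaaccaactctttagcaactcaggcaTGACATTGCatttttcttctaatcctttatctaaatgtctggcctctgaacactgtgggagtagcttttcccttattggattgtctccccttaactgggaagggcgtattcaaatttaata
Idh1: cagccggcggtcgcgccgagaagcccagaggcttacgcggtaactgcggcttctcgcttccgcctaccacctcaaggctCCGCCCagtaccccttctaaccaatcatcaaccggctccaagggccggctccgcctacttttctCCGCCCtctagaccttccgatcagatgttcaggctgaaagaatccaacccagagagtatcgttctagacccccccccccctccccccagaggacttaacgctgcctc
The Gsta3 window held 1 match to TGACNNNGC, from 121 to 113 bases before the start site, and the Idh1 window held none of these letters. Both strands were searched, and 10.2% of 32851 RefSeq promoter windows of this length hold a match. The GC box stood at 2 places in the Idh1 window and at none in the Gsta3 window, against 32.7% of windows with at least 1. The CCAAT box, not in capitals, was in both windows, at 2 places in Gsta3 and 1 in Idh1, overlapped neither of these motifs, and is in 33.8% of windows. TATAAA was in neither, and is in 12.4%. A match is a run of letters and not a measured binding site.

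Gsta3 (ENSMUSG00000025934.15, chromosome 1, 21240589 to 21265661, plus strand in GENCODE vM21) had 6008 UMIs in the 1388 barcodes, a level of 13663 CPM (13319 to 14012). Its RNA was found in 1008 barcodes and in none of the other 380. Among the 346 barcodes with 400 or more UMIs it took between 0% and 12.3% of a barcode's UMIs, with a median of 0.966% and quartiles at 0.286% and 1.95%. The richest barcode held 64 Gsta3 UMIs and the next ones held 60 and 54. The 69 barcodes with the most Gsta3 UMIs held 29.1% of all of them, and the top quartile held 72.5%.

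Idh1 (ENSMUSG00000025950.16, chromosome 1, 65158616 to 65186500, minus strand) had 3388 UMIs, a level of 7705 CPM (7447 to 7968), in 1093 barcodes. Among barcodes with 400 or more UMIs it took between 0% and 3.46%, with a median of 0.664% and quartiles at 0.277% and 1.00%. The 69 barcodes with the most Idh1 UMIs held 20.3% of them. The highest counts of both genes, 64 of Gsta3 and 29 of Idh1, came from the same barcode, which also had the highest total, 1082 UMIs.

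Aox1 (ENSMUSG00000063558.4, chromosome 1, 58029931 to 58106413, plus strand) was close to the limit of detection. It had 11 UMIs in 10 barcodes, a level of 25.01 CPM (12.5 to 44.8). Of these barcodes 9 held 1 UMI and 1 held 2, and every value for Aox1 below rests on these 11 UMIs.

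The share of barcodes with a UMI was set against an even spread, in which every cell has the gene at the same share of its UMIs and only counting decides whether a UMI is seen. Gsta3 was seen in 72.6% of barcodes (70.19 to 74.95), against 95.8% under an even spread, a ratio of 0.758 (0.733 to 0.783). Idh1 was seen in 78.7% (76.5 to 80.9) against 86.3%, a ratio of 0.913 (0.887 to 0.937). Of 240 genes with 50 or more UMIs, 15.4% had a ratio under 0.9. Gsta3 was among them, with 11 genes lower, and Idh1 lay just above that threshold, with 45 genes lower and a median over all genes of 0.976. Aox1 was seen in 0.720% of barcodes (0.346 to 1.32) against 0.789%, a difference within counting error.

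The counts themselves showed where the Gsta3 UMIs were. No Gsta3 UMI was found in 380 barcodes, against 58.6 under an even spread, and more than 20 UMIs were found in 41 barcodes, against 0.212. Counts of 3 to 5 were found in 268 barcodes, against 575.7. Empty and rich barcodes were thus both more frequent than an even spread gives. For Idh1, 295 barcodes held none, against 190.4, and 360 held 3 to 5 UMIs, against 471.4. Counts of 11 to 20 Idh1 UMIs were found in 14 barcodes, against 2.53.

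**Figure D1:**
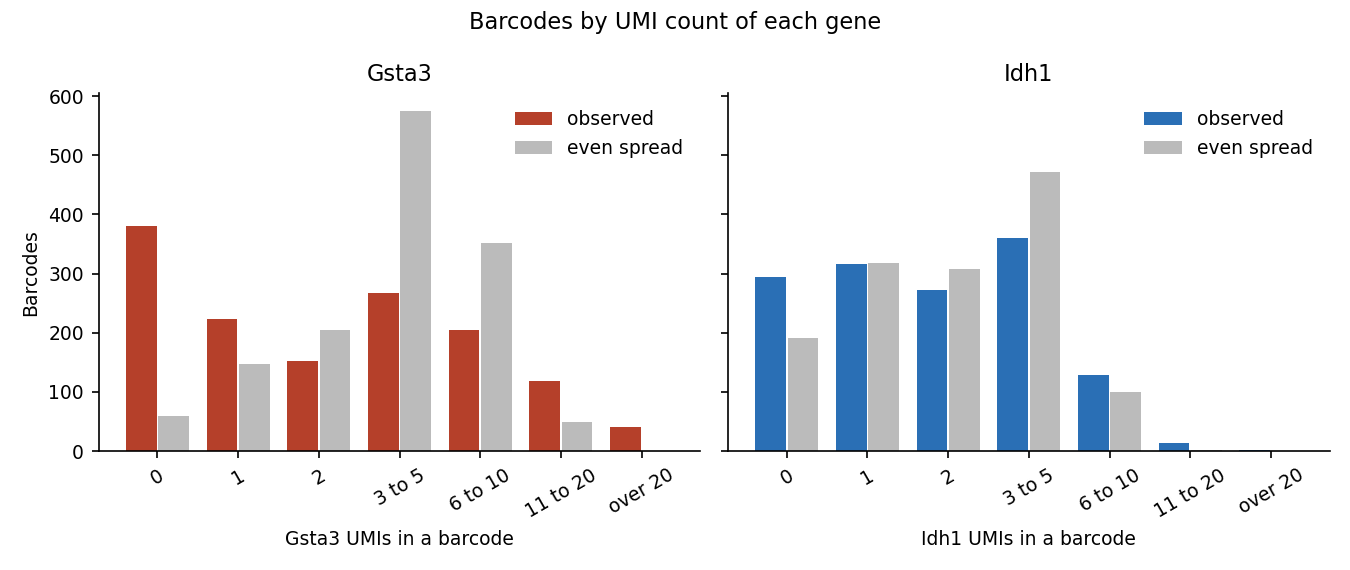
Number of barcodes (y axis, 1388 in all) by the UMIs of Gsta3 (left) and Idh1 (right) found in them, observed (coloured bars) and under an even spread over the barcode totals (grey bars). Gsta3 was absent from 380 barcodes against 58.6 under an even spread, and the Idh1 bars lie nearer to the grey ones, with 295 barcodes without a UMI against 190.4.

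The difference was also present among the deepest barcodes. Among barcodes with 400 or more UMIs, 40 of 346 had no Gsta3 UMI, where an even spread gives 0.301. Among those with 300 to below 400 UMIs the number was 62 of 307, against 2.40, and among those with 200 to below 300 UMIs it was 116 of 405, against 13.3. The shallowest bin, with 100 to below 200 UMIs, had 162 of 330 barcodes without Gsta3, against 93.1. Thinned to 100 UMIs each, 52.5% of the 1388 barcodes would show Gsta3, against 72.1% under an even spread, and 48.8% would show Idh1, against 53.1%.

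The level of Gsta3 was lower in the shallowest barcodes, at 8204 CPM (7442 to 9024) with 100 to below 200 UMIs. It was 13938 CPM (13219 to 14686) with 200 to below 300 UMIs, 14154 CPM (13448 to 14888) with 300 to below 400 UMIs and 14779 CPM (14224 to 15350) with 400 or more, and these last 3 intervals overlap for neighbouring bins. Idh1 was at 6211 CPM (5550 to 6929) in the shallowest bin and between 7544 and 8403 CPM in the other 3. Just inside the minimum, the 34 barcodes with 100 to 119 UMIs held 37 Gsta3 and 10 Idh1 UMIs, and just outside it the 28 barcodes with 80 to 99 UMIs held 15 and 19.

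The dispersion, the squared coefficient of variation that is left after counting variance is taken off, was 1.29 for Gsta3 and 0.386 for Idh1, against a median of 0.244 over the 240 genes. Dispersion was above 1 for 20% of the genes, and 38 genes, each with fewer UMIs than Idh1, were above Gsta3. Among the 15 genes with at least as many UMIs as Idh1, Gsta3 had the highest dispersion, the retinol dehydrogenase gene Rdh10 followed at 0.787, and Idh1 came next, above Hspd1 at 0.296. Within the 4 depth bins the dispersion of Gsta3 lay between 1.12 and 1.48 and that of Idh1 between 0.307 and 0.428. With 11 UMIs no dispersion of Aox1 could be told from counting.

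**Figure D2:**
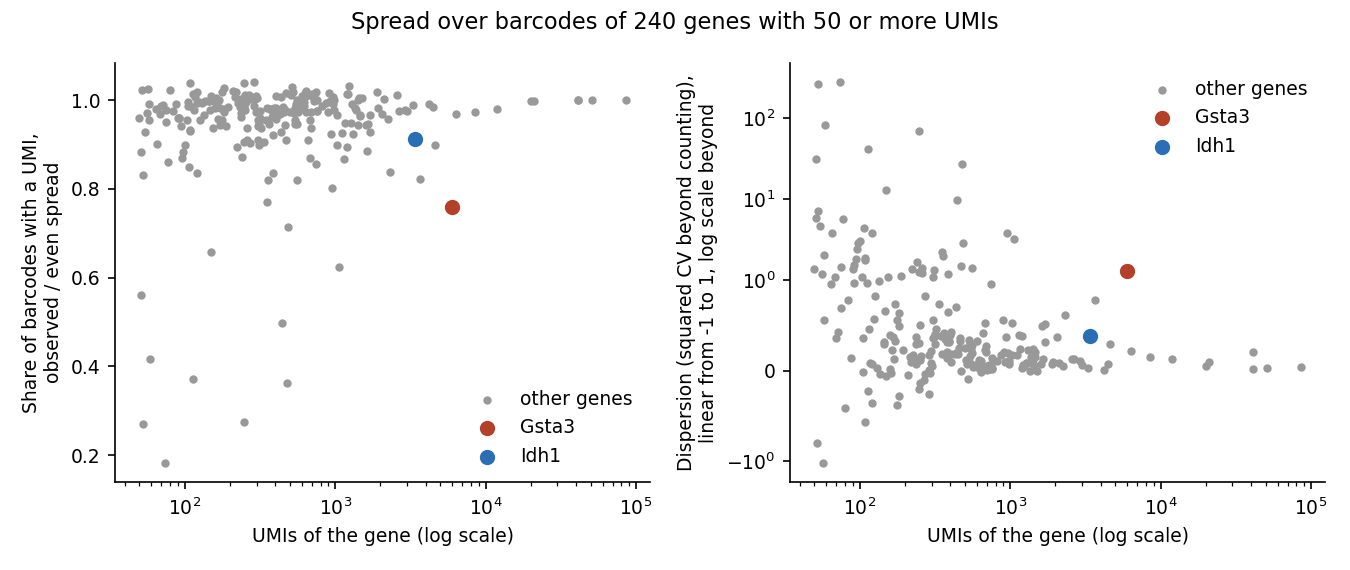
Share of barcodes with a UMI divided by the even-spread share (left) and dispersion (right) against the UMIs of each of 240 genes with 50 or more UMIs (log x axis). Gsta3 lies at 0.758 and 1.29, apart from the other abundant genes, and Idh1 at 0.913 and 0.386. Aox1, with 11 UMIs, is not plotted.

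Gsta3 and Idh1 varied together within depth bins. The correlation of their residuals, the count minus the even-spread value over its root, was 0.140 over 330 barcodes with 100 to below 200 UMIs and 0.232 over 405 with 200 to below 300. It was 0.334 over 307 barcodes with 300 to below 400 UMIs and 0.372 over 346 with 400 or more, with a mean of 0.268 weighted by barcodes. These barcodes share a library and a gene table, and the UMIs of both genes were left out of the totals so that they could not lower each other. With counting variance taken off, an estimate added after seeing the data, the correlation was 0.477. Of the 3 pairs of members this was the only one with enough UMIs to describe in this way.

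In levels, barcodes above the median Gsta3 residual of their depth bin had Idh1 at 9498 CPM (9090 to 9919), against 6258 CPM (5929 to 6601) in those below it, a ratio of 1.52 (1.42 to 1.63). The ratio was between 1.45 and 1.60 in each of the 4 bins. Among 239 genes, 13.8% were at least 1.25-fold higher by the same split, and the median ratio was 1.04. Over quartiles of Gsta3, from the lowest to the highest, Idh1 was at 5982, 6555, 8037 and 10966 CPM, and Gsta3 itself at 711, 4978, 12880 and 35583 CPM. The intervals of the lower 2 quartiles overlap, and those of the upper 2 lie above them. In the bins from 100 to below 300 UMIs the lowest quartile held no Gsta3 UMI. Barcodes without one are ordered by their totals alone. Idh1 was also lower in barcodes without any Gsta3 UMI than in those with one, at 5695 CPM against 7962 CPM among barcodes of 400 or more UMIs.

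Turned round, barcodes above the median Idh1 residual had Gsta3 at 17646 CPM (17086 to 18220), against 10369 CPM (9946 to 10806) below it, a ratio of 1.70 (1.61 to 1.79). By depth the ratio was 1.17 (0.958 to 1.42) with 100 to below 200 UMIs, where Idh1 itself is seen in 52.4% of barcodes, and 1.45, 1.96 and 1.83 in the deeper bins. By this split 8.79% of 239 genes were at least 1.25-fold higher, and the median ratio was 1.02. Gsta3 and Idh1 both had a UMI in 850 barcodes, against 821.7 if detection were independent within depth bins, and neither had one in 137, against 108.7. Of the 850, 101 had 100 to below 200 UMIs, against 88.1. Totals differ within a bin, and their part in these differences was not tested.

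**Figure D3:**
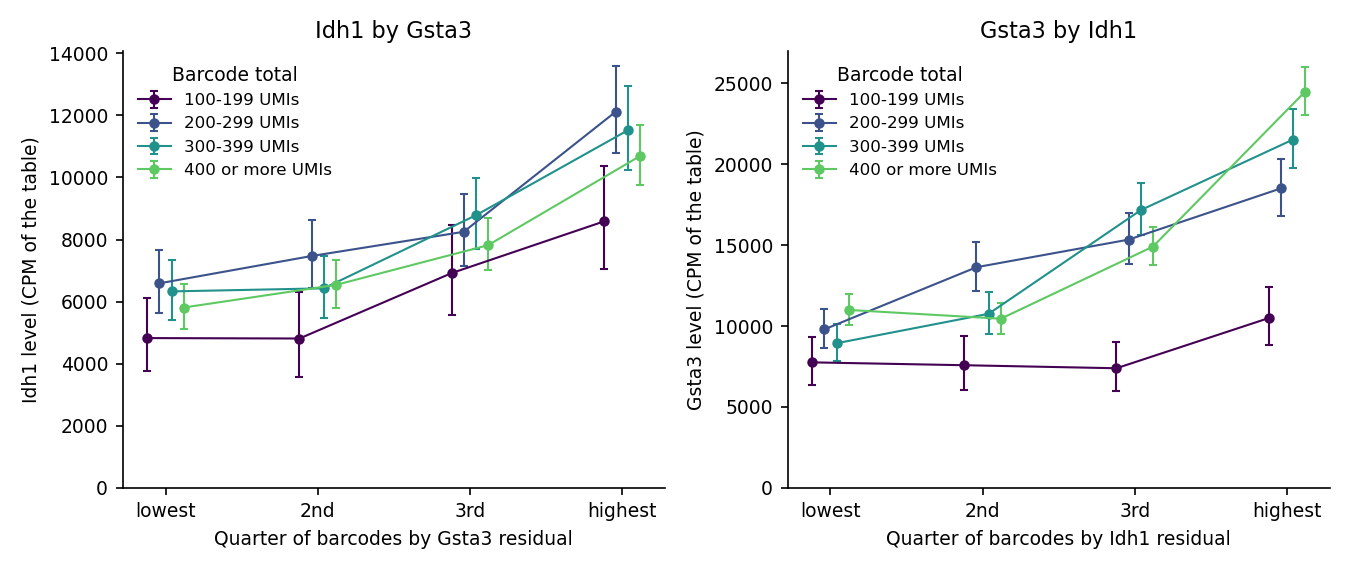
Idh1 level by quartile of Gsta3 residual (left) and Gsta3 level by quartile of Idh1 residual (right), in CPM with 95% intervals for counting error, for 4 bins of barcode total (colours). Idh1 is highest in the top Gsta3 quartile in all 4 bins, and Gsta3 is flat over the lower Idh1 quartiles in barcodes of 100 to below 200 UMIs and highest, at 24497 CPM, in the top quartile of barcodes with 400 or more. In barcodes of 100 to below 200 UMIs the lowest Idh1 quartile held no Idh1 UMI and the next at most 1. Barcodes without an Idh1 UMI are ordered by their totals alone.

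The Aox1 barcodes were listed against both genes. The 10 barcodes with Aox1 held, from high to low, 60, 41, 27, 20, 11, 2, 2, 2, 1 and 0 Gsta3 UMIs, so 5 of them had 10 or more, as did 182 of all 1388 barcodes (13.1%). These counts are not corrected for depth, and the barcodes with Aox1 were deeper, with a median of 339.5 UMIs against 286 without it. Gsta3 was at 44528 CPM in these 10 barcodes and 13399 CPM in the others, a depth-stratified ratio of 3.21 (2.75 to 3.75) that rests largely on the 2 richest barcodes, without which it was 26273 CPM. Idh1 had a UMI in all 10 and Gsta3 in 9, against 8.41 and 7.78 if detection were independent within depth bins. The Idh1 counts were, from high to low, 12, 7, 7, 6, 6, 2, 2, 1, 1 and 1. Idh1 was at 12071 CPM against 7667 CPM, a ratio of 1.56 (1.16 to 2.10). The reverse comparison did not resolve: Aox1 had 7 UMIs above and 4 below the median Gsta3 residual, a ratio of 1.76 (0.446 to 8.18) that was 0.499 without the 5% of barcodes richest in Gsta3, and 8 above and 3 below the median Idh1 residual, 2.72 (0.652 to 15.9). The mean residual correlations, 0.0779 with Gsta3 and 0.0365 with Idh1, are too weak in such sparse counts to be a finding.

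The gene most like Gsta3 among 167 genes with 200 or more UMIs was Idh1, and the gene most like Idh1 was Gsta3, by the mean residual correlation over the 4 depth bins. After Idh1, Gsta3 was followed by Slc9a4, a sodium/proton exchanger gene of parietal cells (0.225), Nbeal1 (0.179), Plekhb2 (0.178) and the villin gene Vil1 (0.150). Counting variance was not taken off in this ranking, and it weighs more on genes with few UMIs. Split at the median Gsta3 residual, Nbeal1 (1.63) and Slc9a4 (1.62) had higher ratios than Idh1 (1.52). Those of Plekhb2 (1.42) and Vil1 (1.35) were lower. After Gsta3, Idh1 was followed by Rdh10, whose enzyme oxidises retinol (0.223), the tubulin gene Tuba4a (0.146), the Arp2/3 complex gene Arpc2 (0.117) and Pgap1 (0.107). A mean correlation above 0.2 was found for 1.2% of genes with Gsta3 and for 1.2% with Idh1, which is 2 genes in each case. Of the 10 genes most like each, 4 were on both lists: Vil1, Rdh10, Tuba4a and Pgap1.

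At the other end, the lowest values with Gsta3 belonged to the elongation factor gene Eef1b2 (-0.155) and the ribosomal protein genes Rpl37a (-0.148) and Rpl31 (-0.109). With Idh1 they belonged to Rpl31 (-0.0945), Eef1b2 (-0.0828) and Spats2l (-0.0805). Rpl37a and Rpl31 hold a large part of the totals against which residuals are set. So do Rpl7, at -0.00721 with Gsta3 and 0.0316 with Idh1, and Ptma, at 0.0852 and 0.0442. Whether the share of the totals has a part in the low values was not tested. The same ranking for Aox1 ran from 0.0877 for Paqr8, followed by Arl4c, Gsta3, Pgap1 and Tm4sf20, to -0.0442 for Stk16, -0.0508 for Cul3 and -0.0558 for Clk1, all of them weak values from 11 UMIs.

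**Figure D4:**
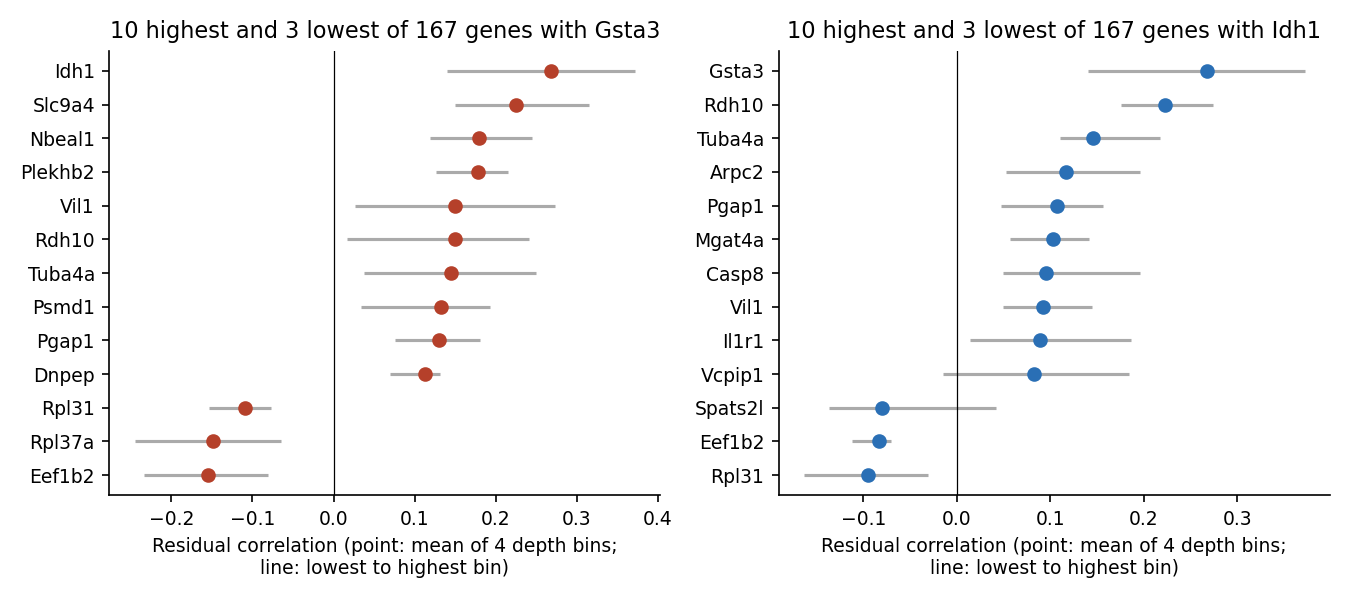
Mean residual correlation over 4 depth bins (points) and the range over bins (lines) of the 10 highest and 3 lowest of 167 genes with Gsta3 (left) and with Idh1 (right). Gsta3 and Idh1 head each other's list at 0.268.

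Other redox genes were taken from 5 lists with 67 genes in all, of which 25 have a row, 20 had a UMI and 12, Gsta3 and Idh1 included, had 50 or more. The other 10 of these 12 were compared above against below the median residual of each member. Above the median of Gsta3, 2 of the 10 were at least 1.25-fold higher, against 13.8% of 239 genes, and none was at or below 0.8-fold, against 11.3%. Above the median of Idh1, 2 of the 10 were at least 1.25-fold higher, against 8.79%, and none was at or below 0.8-fold, against 6.69%. The median ratio of the 10 was 1.14 by Gsta3, where all genes had 1.04, and 1.10 by Idh1, where all genes had 1.02.

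The members of that list that were past 1.25-fold by Gsta3 were Cyp27a1, the mitochondrial sterol hydroxylase gene, with 74 UMIs above and 34 below the median, a ratio of 2.18 (1.44 to 3.38), and Acadl, which encodes an acyl-CoA dehydrogenase of fatty acid oxidation, at 1.32 (1.19 to 1.46). By Idh1 they were Cyp27a1 at 1.54 (1.03 to 2.32) and Rdh10 at 1.39 (1.30 to 1.49). Rdh10 differed less by Gsta3, at 1.15 (1.08 to 1.23).

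Other genes of these lists were close to even. Txndc9, a thioredoxin-domain protein gene, was at 1.13 (1.02 to 1.26) above the median of Gsta3 and 1.17 (1.05 to 1.30) above that of Idh1. Cul3, the cullin of the ligase that acts on NRF2, was at 1.05 (0.928 to 1.20) by Gsta3 and 1.05 (0.927 to 1.20) by Idh1, so a difference of more than 1.20-fold lies outside its counting interval. The reductase gene Pecr, the orphan P450 gene Cyp20a1, the valine breakdown gene Hibch and the coenzyme Q-binding protein gene Coq10b lay between 0.998 and 1.18 by Gsta3 and between 0.929 and 1.14 by Idh1, each with an interval that includes 1.

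Aox1 lies at the head of a row of aldehyde oxidase genes on chromosome 1. Its neighbour Aox3 (58113130 to 58200698) had 31 UMIs in 28 barcodes, 70.5 CPM (47.9 to 100.1), Aox4 had 1 UMI and Aox2 had none. A count of 0 allows a UMI in up to 0.216% of barcodes (3 of 1388), and it sets no limit on the share of cells that express Aox2. Of the 10 barcodes with Aox1, 1 also held an Aox3 UMI. The 9 UDP-glucuronosyltransferase genes of the Ugt1a locus, which conjugate glucuronic acid to bilirubin and xenobiotics, had between 0 and 16 UMIs each, with 16 for Ugt1a6a, 5 for Ugt1a7c, 2 for Ugt1a5, 1 each for Ugt1a2 and Ugt1a6b, and 4 genes at 0. They share their last exons, so reads from the end of their transcripts cannot be assigned to 1 of them and these counts are uncertain.

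No gastric cell type could be named from the table, since too few of its markers have a row. The parietal list had 1 of 5 genes measured (Slc9a4), the chief and the pit and neck lists none, the enterocyte, tuft, endocrine and immune lists 2 each, the stromal list 3, with Col3a1 and Des at 1 UMI each, and the cycling list 4. Single marker genes were therefore used, and Gsta3 and Idh1 were set against the presence of a UMI of each, within depth bins. Barcodes with a marker UMI were mostly deeper, with medians of 319 against 265 UMIs for Slc9a4 and 460 against 282 for Sgol2, and depth within a bin was not tested.

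Gsta3 was higher in barcodes with Slc9a4, at 16291 CPM against 11262 CPM without, a ratio of 1.39 (1.32 to 1.46), and with Vil1, at 1.40 (1.31 to 1.49). It was also higher with Alpi, the intestinal alkaline phosphatase gene, at 1.51 (1.38 to 1.65) over 61 barcodes. It was lower in the barcodes with the replication genes Mcm3 at 0.778 (0.729 to 0.831) and Prim2 at 0.701 (0.634 to 0.775), and with the centromere genes Sgol2 at 0.739 (0.650 to 0.841) and Hjurp at 0.792 (0.741 to 0.847). It was lowest with the endocrine granule genes Resp18, at 0.475 (0.334 to 0.676) over 13 barcodes, and Ptprn, at 0.657 (0.561 to 0.769) over 40, and with Inpp5d, a phosphatase gene listed for tuft cells, at 0.577 (0.450 to 0.740) over 28. The other tuft gene, Ptpn18, differed from Inpp5d, with Gsta3 at 1.11 (1.05 to 1.17), and the immune gene Ikzf2 had Gsta3 at 1.35 (1.27 to 1.44).

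Idh1 followed Gsta3 in only part of these barcodes. With Alpi it was at 1.36 (1.20 to 1.54), with Vil1 at 1.18 (1.09 to 1.27) and with Slc9a4 at 1.10 (1.03 to 1.18). With all 4 cycling genes its ratio lay between 0.866 and 0.957 and each interval included 1. With Ptprn it was higher, at 1.24 (1.06 to 1.46), where Gsta3 was lower. With the fibronectin gene Fn1 both were lower, Idh1 at 0.763 (0.696 to 0.836) and Gsta3 at 0.875 (0.819 to 0.935). The difference between the 2 genes in these barcodes was not tested.

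Free RNA in droplets can give a UMI of a gene that the cell does not express. Gsta3 had a UMI in 32.1% of the 28 barcodes with Inpp5d (median 270 UMIs) and in 73.5% of the others (median 286.5), and Idh1 in 50% and 79.3%. Whether the cells with Inpp5d express Gsta3 at all is not known from these data, so the part of the Gsta3 UMIs that is free RNA was not tested. Reads at the ends of these transcripts were not ambiguous by sequence: of the words of 25 bases in the last 500 bases of the longest Gsta3, Idh1 and Aox1 transcripts, 0% occur in transcripts of any other gene of GENCODE vM21. An antisense gene, Gm28836, overlaps Gsta3 and has no row in the table, and strand use in the counting is not stated.

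The barcodes were also clustered without the 3 members and without every listed redox and marker gene, so that their levels did not shape the clusters. Of 7 clusters, cluster 4 had the highest level of both genes: Gsta3 was at 21113 CPM (20117 to 22146) in its 237 barcodes, against 12011 CPM (11655 to 12374) in all others, and Idh1 at 9147 CPM (8495 to 9835) against 7385 CPM (7107 to 7671). The leading genes of cluster 4 by fold were B3gnt7, Alpi, Slc23a3, Slc9a2 and Xkr9, named after their values were seen. All of these but Alpi were used to cluster, so their folds are partly set by the clustering. Slc9a4 and Vil1 were not used to cluster, and they were at 1.84 (1.61 to 2.11) and 1.70 (1.53 to 1.90) times the level of the other barcodes there.

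In the order of Gsta3 levels, cluster 4 was followed by clusters 6 (13488 CPM), 5 (13124), 3 (12936), 7 (12711), 2 (10834) and 1 (10588). These levels are not corrected for depth, and the median total ran from 190.5 UMIs in cluster 2 to 492.5 in cluster 5. The part of depth in the order was not tested. The intervals of clusters 6, 5, 3 and 7 overlap, as do those of clusters 2 and 1, and that of cluster 7, with 32 barcodes, overlaps every one but that of cluster 4. Idh1 ran from 9147 CPM in cluster 4 and 8465 in cluster 3 to 6838 in cluster 5 and 6832 in cluster 1, with overlapping intervals between neighbours. Cluster 3 was led by Arl4c and Tm4sf20, which were both used to cluster. It had Rdh10 at 1.91 (1.78 to 2.06) times the level of the others and Idh1 at 1.12 (1.03 to 1.22), while Gsta3 was at 0.936 (0.874 to 1.00). It also held 6 of the 11 Aox1 UMIs, a ratio of 5.58 (1.42 to 23.1) over the others, while cluster 4 held 3, cluster 1 held 2 and the remaining 4 clusters 0. Cluster 6 was led by Resp18, Inpp5d and Ptpn18, none of which was used to cluster. Its Gsta3 level was 0.987 (0.870 to 1.11) times that of the others, although Gsta3 was low in barcodes with a UMI of Resp18 or Inpp5d.

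Gsta3 stayed uneven inside the clusters, with a dispersion between 0.752 in cluster 4 and 2.17 in cluster 3. The correlation of Gsta3 with Idh1 was above 0 inside each of them. No intervals were computed for single clusters, so whether the values of clusters 3 and 7 differ from 0 was not tested. The residual correlation was 0.406 over the 298 barcodes of cluster 1, 0.353 in cluster 2, 0.254 in cluster 4, 0.387 in cluster 5, 0.269 in cluster 6, 0.288 over the 32 barcodes of cluster 7 and lowest, 0.0973, over the 264 barcodes of cluster 3. The outline of the clusters depended on the settings, as described with the alternatives.

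**Figure D5:**
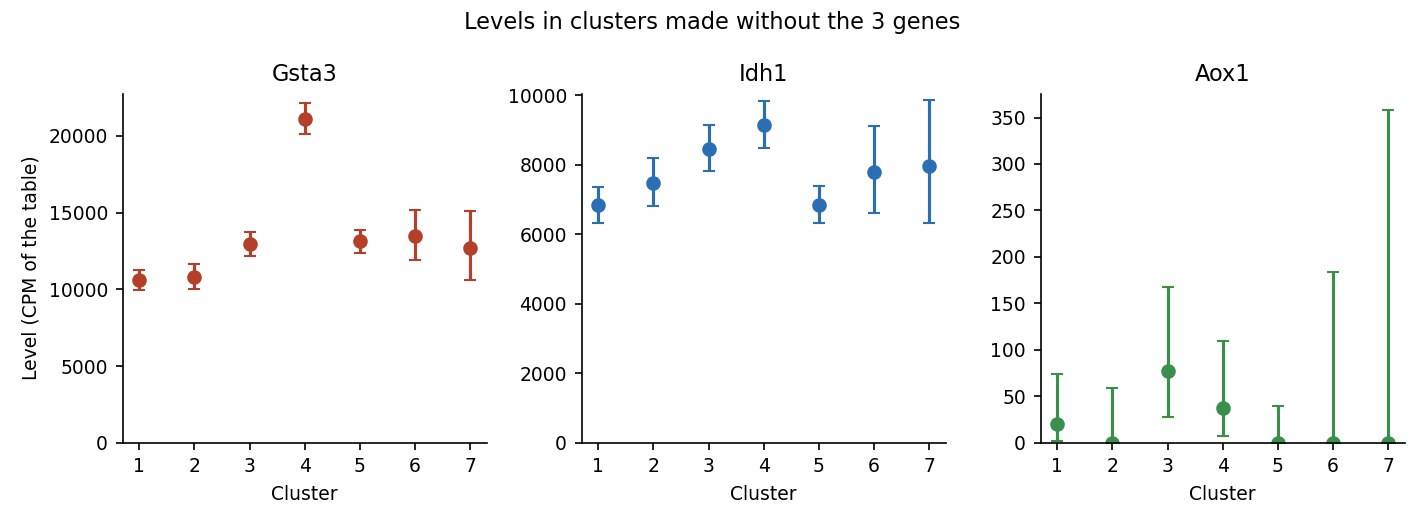
Level of Gsta3, Idh1 and Aox1 (CPM, y axes starting at 0, each on its own scale) in 7 clusters made without these genes, with 95% intervals for counting error. Cluster 4 stands at 21113 CPM for Gsta3, above the other 6, while the Idh1 levels lie between 6832 and 9147 CPM and the Aox1 intervals overlap.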

How the data were processed

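The values are whole-number counts per gene and barcode in 1 deposited table, read here as UMIs. Per the submitters' processing notes, Cell Ranger, Seurat 2.3.0 and mm10 were used, without role or order. Annotation and earlier filters are not given in the sources used. The last row, Asb18, held 928 of 1460 values, all 0, and was left out. Of 779 genes, 707 matched 1 gene of GENCODE vM21, all on chromosome 1. The number of value columns not used was 0. Barcodes under 100 UMIs were left out, which kept 439743 of 444786 UMIs. No cell was mapped to any of the 8 samples.

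Levels carry exact Poisson intervals, shares Clopper-Pearson intervals and ratios exact conditional intervals, while depth-stratified ratios are Mantel-Haenszel ratios. Bins were 100 to below 200, 200 to below 300, 300 to below 400 and 400 or more UMIs. Pearson residuals were limited to 10 in size. Median splits ranked barcodes by residual within bins. A limit for 0 uses 3 counts. Clusters used 247 genes seen in at least 20 barcodes, 8 components, 15 neighbours and the Leiden algorithm at resolution 0.5 (leidenalg 0.10.2, igraph 0.11.9, scikit-learn 1.9.0, numpy 2.4.6, scipy 1.17.1, Python 3.11.15). Doublets were not called or removed. The statistics were tested on simulated data.

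Named genes are the members, every measured gene of the redox lists except 1 that is not reported here, and the 5 most and 3 least like genes of each member. The members and lists were chosen with earlier results of these data known.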

Additional observations from a re-analysis of the deposited data

Results flagged for a closer look

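Barcodes with fewer than 100 UMIs had no part in the comparisons, yet they held RNA of both abundant members. In these 72 barcodes Gsta3 was at 7337 CPM (5166 to 10113), from 37 UMIs in 23 barcodes, and Idh1 at 7932 CPM (5667 to 10801), from 40 UMIs in 27 barcodes. What singled them out is that each exceeded 595 CPM, the limit for a gene with no UMI in these barcodes. No Aox1 UMI was found in them.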

How the results depend on the processing

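Of 114 values recomputed for 17 results, 93 stayed within the 95% interval of the value reported and 21 moved outside it. The count includes Aox1, whose intervals for dispersion and ratios are so wide that few values could leave them. It is therefore no measure of how stable the results are. The Aox1 ratio above against below the median Gsta3 residual, 1.76 (0.446 to 8.18), turned to 0.499 without the 5% of barcodes richest in Gsta3, within its wide interval. The Aox1 dispersion, 17.7 with an interval on both sides of 0, was -0.904 without the deepest 5% of barcodes and -0.672 without the 3 barcodes with the most Aox1 UMIs, so neither value has a direction. Leaving Rpl37a, Rpl7, Rpl31 and Ptma out of the totals put Gsta3, Idh1 and Aox1 at 27146, 15308 and 49.7 CPM, since the totals are then smaller. A minimum of 200 UMIs put Gsta3 at 14389 CPM and the ratio of observed to even-spread share at 0.805 for Gsta3 and 0.946 for Idh1, and thinning to 100 UMIs put that of Gsta3 at 0.728. Without the 5% of barcodes richest in Gsta3, the correlation of Gsta3 with Idh1 was 0.214, that of Gsta3 with Aox1 0.00899, and the Idh1 ratio 1.41. Top against bottom quartiles gave an Idh1 ratio of 1.83. Removing counting variance gave 0.477, and totals and bins free of the 4 abundant genes gave a correlation of 0.256 and an Idh1 ratio of 1.48; these settings were chosen after seeing the data. Spearman's coefficient of Idh1 with Aox1 was 0.131. It ranks the 1378 barcodes without an Aox1 UMI by their totals alone within each bin, so it mostly reflects totals and not Aox1. The highest over the lowest cluster for Gsta3, 1.99, was 1.47 at resolution 0.25, 3.66 at resolution 1, 2.19 with 5 components and 7.68 with the members kept in the clustering. For Idh1 it was 1.34, and 1.20, 1.61, 1.50 and 2.09 in these settings. At resolution 0.25 and with 5 components different clusters were highest for the 2 genes. The cause of these moves was not tested, and clusters under 30 barcodes were left out of them. The quartile ratio of Aox1 by Idh1 had no value, since the lowest quartile held no Aox1 UMI. No paired analysis was possible because barcodes carry no sample number and there is 1 group. With a median of 286 UMIs per barcode, levels of single cells and everything about Aox1 are limited by depth.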
